A study of Mus musculus with 24 samples.

Results

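Hypothalamic control of the pituitary was followed through 7 genes, the releasing hormone genes *Trh*, *Crh*, *Ghrh* and *Gnrh1*, the inhibitory hormone gene *Sst*, and the dopamine synthesis genes *Th* and *Ddc*. They were chosen by name, and all 7 are among the 22274 genes of the deposited table. RNA was sequenced from the hypothalamus, including the supraoptic and paraventricular nuclei, of male C57BL/6J mice in 6 groups of 3 libraries. Sham-operated mice are labelled day 0 (Sham). The lesion (PEL, pituitary stalk electrical lesion) damages the stalk with electric current from a printed knife, and lesioned mice were taken at day 3 (PEL_3d) and day 10 (PEL_10d). Each of these groups has a counterpart given growth hormone (Sham_GH, PEL_3d_GH, PEL_10d_GH), and the dose, the schedule and the age of the mice are not given in the sources used here. The labels name no modified allele in any group. The labels do not say that each library came from a separate animal, so p-values measure the spread between these libraries only. Lesion and day also cannot be told apart, since no Sham library is labelled day 3 or day 10.

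The axons of parvocellular neurons end in the median eminence, where their hormones enter portal blood and reach the anterior pituitary. Thyrotropin-releasing hormone (*Trh*), corticotropin-releasing hormone (*Crh*), growth hormone-releasing hormone (*Ghrh*) and gonadotropin-releasing hormone (*Gnrh1*) stimulate release of pituitary hormones, whereas somatostatin (*Sst*) inhibits growth hormone and dopamine inhibits prolactin. Tyrosine hydroxylase (*Th*) is the rate-limiting enzyme of catecholamine synthesis, and DOPA decarboxylase (*Ddc*) makes dopamine from L-DOPA.

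On GRCm38, in the GENCODE annotation, each of the 7 is a protein-coding gene. *Trh* is on chromosome 6 (92242061 to 92244650), *Crh* on chromosome 3 (19693401 to 19695396) and *Ghrh* on chromosome 2 (157329497 to 157347506), all on the minus strand. *Gnrh1* is on the plus strand of chromosome 14 (67745181 to 67749439). *Sst* on chromosome 16 (23889573 to 23890958), *Th* on chromosome 7 (142892752 to 142931128) and *Ddc* on chromosome 11 (11814101 to 11898144) are on the minus strand. An antisense gene, 1700042O10Rik, lies within *Ddc* on the other strand and is not listed in the deposited table, and the counting is not stated to use strand. Whether exons of the antisense gene overlap those of *Ddc* was not checked, so it is not known whether its reads were counted for *Ddc*.

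RefSeq promoter windows of GRCm38.p6, 300 bases long and running from 250 bases before a transcript start to 50 after it, were matched for 5 of the 7 genes (7 windows). They are shown for *Sst*, *Ghrh* and *Ddc*, which fell together at day 3, and for *Th*, the partner of *Ddc* in dopamine synthesis. The 100 bases before the start are given 5′ to 3′ on the gene's strand. Capitals mark the cAMP response element TGACGTCA or the TATA box letters TATAAA on either strand.
Sst, chr16:23890845-23890944, minus strand: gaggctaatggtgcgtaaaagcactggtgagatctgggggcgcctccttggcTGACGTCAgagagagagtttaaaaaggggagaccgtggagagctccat
Th, chr7:142899996-142900095, minus strand: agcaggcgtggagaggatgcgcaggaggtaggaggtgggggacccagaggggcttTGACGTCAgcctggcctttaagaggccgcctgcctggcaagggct
Ghrh, chr2:157337427-157337526, minus strand: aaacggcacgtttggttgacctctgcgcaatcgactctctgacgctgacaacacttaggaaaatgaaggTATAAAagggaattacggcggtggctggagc
Ddc, chr11:11898145-11898244, minus strand: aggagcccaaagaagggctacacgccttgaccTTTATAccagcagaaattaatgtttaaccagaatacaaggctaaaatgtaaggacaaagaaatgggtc
TGACGTCA, which reads the same on both strands, begins 48 bases before the start of *Sst* and 45 bases before that of *Th*. It is in 588 of all 32851 windows (1.79%), and not in the windows of *Trh*, *Ghrh* or *Ddc*. TATAAA begins 31 bases before this start of *Ghrh*, is on the other strand in *Ddc*, and is in 13.6% of all windows on 1 strand or the other. The second window of *Ghrh*, the second of *Ddc* and that of *Trh* hold neither motif. The 3 genes that fell at day 3 thus share neither motif, and these matches are a description of letters, not of bound sites.

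Total counts in the 18 hypothalamic libraries ranged from 15095267 to 17859115 (median 15954537). The library labelled Sham replicate 1 stood apart, and the rule of selection treats it as mislabelled for tissue. Its 12 hypothalamic marker genes summed to 53.4 FPKM (reads scaled for gene length and library size), against 947 to 6647 in the other 17 libraries. Its 8 choroid plexus markers summed to 14917 FPKM, against 11.1 to 28.5, and its 10 hippocampal markers to 264 FPKM, against 34.2 to 48.8. It was therefore left out of the Sham group, which then holds replicates 2 and 3, and values with it in the fit are given beside the members' comparisons with Sham (the gene lists were not run with it). The hippocampal library HIP_Sham replicate 1 had 1164 FPKM of hypothalamic markers and 19.9 FPKM of choroid plexus markers, and no library was moved between groups. *Kiss1*, one of the 12 hypothalamic markers, was at 0 to 0.694 FPKM over all 24 libraries.

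The order of the levels was *Sst*, *Trh*, *Ddc*, *Th*, *Ghrh*, *Gnrh1* and *Crh*. Over the 17 hypothalamic libraries, *Sst* had a median of 140.3 FPKM (73.6 to 212) and *Trh* of 84.5 FPKM (43.3 to 117). The enzyme genes followed, *Ddc* with a median of 27.9 FPKM (18.8 to 34.3) and *Th* with 13.9 FPKM (10.2 to 23.0). *Ghrh* had a median of 6.90 FPKM (2.20 to 16.0), *Gnrh1* of 1.91 FPKM (0.526 to 5.67) and *Crh* of 1.67 FPKM (0.575 to 4.06). Only *Trh* and *Ddc* are neighbours in this order whose ranges did not overlap. Within libraries *Sst* exceeded *Trh* in 16 of 17, *Th* exceeded *Ghrh* in 14 of 17 and *Gnrh1* exceeded *Crh* in 11 of 17. *Ddc* exceeded *Th*, and *Ghrh* exceeded *Gnrh1*, in 17 of 17 each. The coefficient of variation was 18.6% for *Ddc*, 21.9% for *Th*, 21.9% for *Trh* and 23.5% for *Sst*, against 51.2% for *Gnrh1*, 53.6% for *Ghrh* and 56.0% for *Crh*. The last 3 rest on few reads, 4 to 43 counts per library for *Gnrh1*, 17 to 127 for *Ghrh* and 12 to 91 for *Crh*.

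Most of these genes marked the hypothalamus. One of the hippocampal libraries, HIP_Sham replicate 3, is hippocampal by its title but hypothalamic by its tissue field, and was kept by its title. The hippocampal markers summed to 329 to 380.0 FPKM and the hypothalamic ones to 49.0 to 73.8 FPKM in HIP_Sham replicates 2 and 3. In the 5 hippocampal libraries other than HIP_Sham replicate 1, *Trh* had 0.094 to 0.544 FPKM, *Th* 0.109 to 0.285 FPKM and *Ddc* 2.43 to 4.40 FPKM, all below each of the 17 hypothalamic libraries. *Ghrh* had 0 to 2 counts there and *Gnrh1* 0 to 1, both under the floor of 3 counts, which covers counting error only. *Sst*, which cortical and hippocampal interneurons also make, had 141 to 226 FPKM and overlapped with the hypothalamic range, as did *Crh* with 0.630 to 1.35 FPKM. Sham replicate 1 had 1.51 FPKM of *Trh*, 0.785 FPKM of *Th* and no count of *Gnrh1*, each below every other hypothalamic library.

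**Figure D1:**
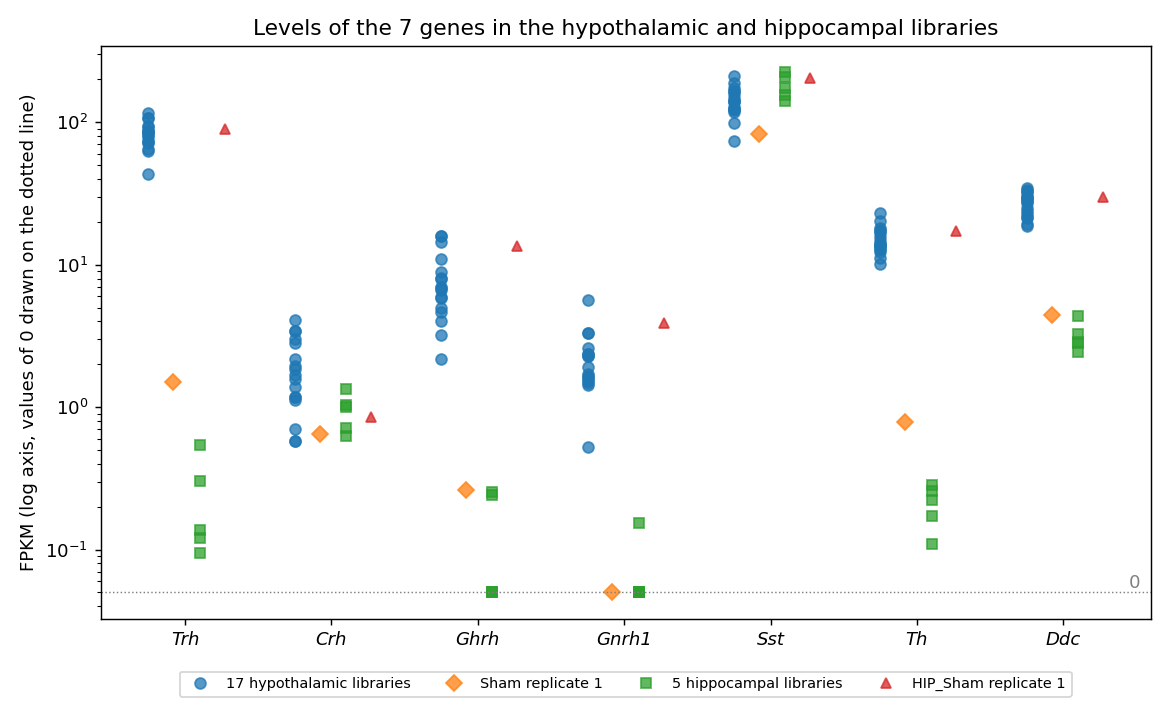
FPKM of each gene on a log axis, with values of 0 on the dotted line. *Trh*, *Ghrh*, *Th* and *Ddc* of the 17 hypothalamic libraries (circles) lie above the 5 hippocampal libraries (squares), for these 4 genes Sham replicate 1 (diamond) lies below the 17 and HIP_Sham replicate 1 (triangle) among them, while *Sst* and *Crh* overlap.

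The lesion was compared with Sham at day 3 first. *Ghrh*, *Sst* and *Ddc* fell, and the other 4 genes did not pass the test. The test was the quasi-likelihood test of edgeR, with p adjusted over all genes tested by Benjamini-Hochberg and a threshold of 0.05. Of the members 3 of 7 genes passed, all lower, while 40.5% of all 14905 genes tested passed. That is near the background, so the count is not a result about these genes as a group. Their median log2 fold change was -0.59, against -0.01 over all genes tested. The hypothalamic markers moved with them, with 7 of 11 tested lower, 1 higher and a median of -0.56, and their 12 genes summed to 1306 to 1403 FPKM in the 2 Sham libraries and 1019 to 1148 FPKM in PEL_3d. Of the anterior pituitary markers 3 of 6 tested were lower (median -0.77), with sums of 81.3 to 104 FPKM in Sham and 41.2 to 67.3 FPKM in PEL_3d. Most of each sum was *Pomc*, which is also among the 12 hypothalamic markers. It had 71.2 and 61.5 FPKM in Sham and 45.9, 30.0 and 42.8 FPKM in PEL_3d. The part of these markers in the members' values was not tested. All 7 passed the filter on low counts in every comparison below. In these bulk libraries fewer cells of a type and less RNA per cell cannot be told apart.

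*Ghrh* counts were 84 and 125 in Sham, and 41, 32 and 26 in PEL_3d. Every PEL_3d library lay below both Sham libraries, at 4.07 ± 0.894 FPKM (SD, n = 3) against 13.5 ± 3.45 FPKM (n = 2). The log2 fold change was -1.74 (SE 0.26, edgeR adjusted p = 0.00051), the farthest from 0 among the 7 genes. Without either Sham library or any PEL_3d library in turn it ranged from -1.97 to -1.46, with adjusted p of 0.000794 to 0.0165.

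*Sst*, whose product opposes GHRH at the pituitary, had 167 and 212 FPKM in Sham and 128, 124 and 117 FPKM in PEL_3d. The groups did not overlap, and the log2 fold change was -0.64 (SE 0.09, edgeR adjusted p = 0.00037). In 1 fit over all 6 groups, which share their spread, the edgeR adjusted p was 0.06. The ratio of *Sst* to *Ghrh* in FPKM was 13.3 and 15.1 in Sham and 25.6 to 36.6 in PEL_3d, higher in each PEL_3d library than in both Sham libraries.

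*Ddc* was the most even of the 3 in Sham, but not in PEL_3d. It had 34.3 and 33.2 FPKM in Sham and 22.7, 23.9 and 21.6 FPKM in PEL_3d, with no overlap. The log2 fold change was -0.59 (SE 0.08, edgeR adjusted p = 0.00023). *Th* had 17.3 and 14.7 FPKM in Sham and 13.9, 13.5 and 12.97 FPKM in PEL_3d, which did not overlap either, but its log2 fold change of -0.26 (SE 0.11) did not pass (edgeR adjusted p = 0.074). As each library was left out, its value ranged from -0.39 to -0.13. With Sham replicate 1 in the fit, 0 of 7 passed by edgeR. The log2 fold change was then -1.15 for *Ghrh* (adjusted p = 0.535), -0.34 for *Sst* (adjusted p = 0.536) and -0.09 for *Ddc* (adjusted p = 0.959).

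The other releasing hormones showed wide spread. *Trh* had 78.9 and 117 FPKM in Sham and 81.0 to 108 FPKM in PEL_3d, which lies within the Sham range. *Crh* counts were 14 and 38 in Sham, and 36, 71 and 25 in PEL_3d (log2 fold change 0.69, SE 0.51, adjusted p = 0.31), with values of 0.17 without Sham replicate 2, 1.53 without Sham replicate 3 and 0.15 without PEL_3d replicate 2. *Gnrh1* counts were 12 and 43 in Sham, and 18, 12 and 18 in PEL_3d (log2 fold change -0.85, SE 0.49, edgeR adjusted p = 0.20). For all 3 genes the groups overlapped, and a difference was not detectable at this depth and n. Without Sham replicate 2, which leaves 1 Sham library that is assumed to vary like PEL_3d, *Gnrh1* passed at a log2 fold change of -1.47 (edgeR adjusted p = 0.0435), and without Sham replicate 3 the sign turned (0.29, adjusted p = 0.741).

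**Figure D2:**
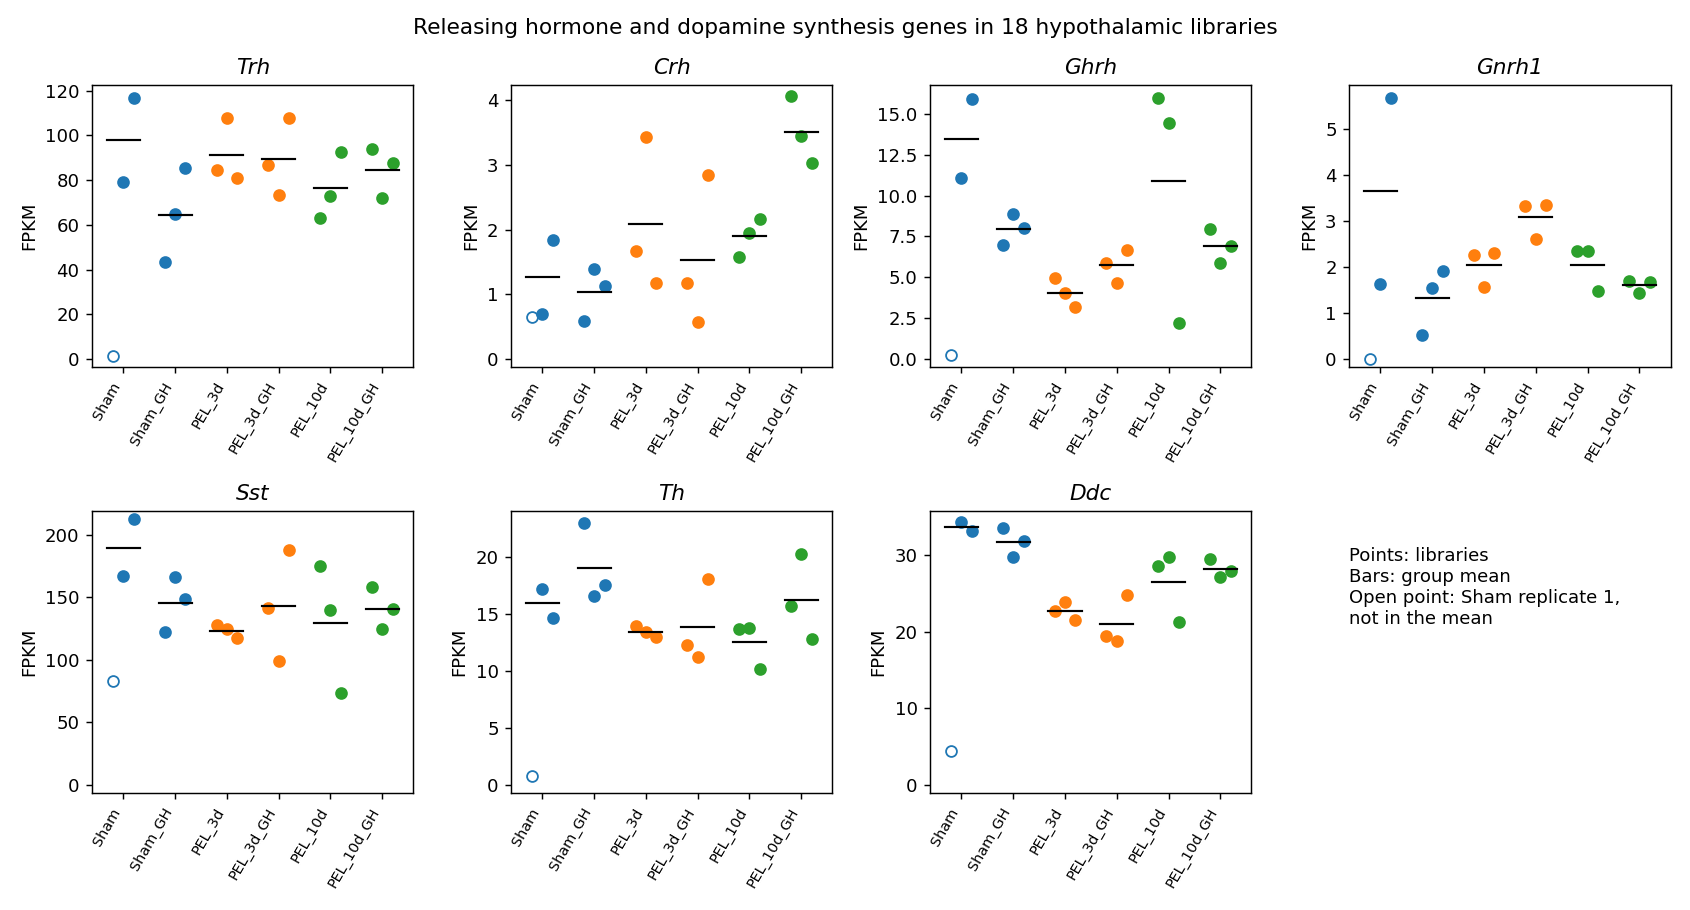
FPKM of each gene in each hypothalamic library (points) by group, with group means (bars) and Sham replicate 1 as an open point outside the mean. *Ghrh*, *Sst* and *Ddc* of PEL_3d lie below both Sham libraries of the mean, *Ghrh* of PEL_10d splits into 2 high libraries and 1 low, and *Crh* is highest in PEL_10d_GH.

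At day 10 no member passed against Sham. By edgeR 0 of 7 passed, against 9.40% of all genes tested. At an unadjusted p under 0.05 there were 2 (*Th* and *Ddc*), against 24.5% of all genes tested, and DESeq2 and limma on log2(FPKM + 0.1) each gave 0. *Ddc* had 28.6, 29.7 and 21.2 FPKM in PEL_10d, all below the Sham libraries, with a log2 fold change of -0.37 (SE 0.13, edgeR adjusted p = 0.12). *Th* had 13.7, 13.8 and 10.2 FPKM in PEL_10d, again below both Sham libraries, with a log2 fold change of -0.37 (SE 0.14, adjusted p = 0.16). With Sham replicate 1 in the fit both changed sign, to 0.12 for *Ddc* and 0.18 for *Th*. Without PEL_10d replicate 3 the values were -0.23 for *Ddc* and -0.24 for *Th*. *Crh* had 33, 43 and 44 counts in PEL_10d, within or above the 14 and 38 of Sham (log2 fold change 0.55, SE 0.41, edgeR adjusted p = 0.46), with values of 0.03 without Sham replicate 2 and 1.40 without Sham replicate 3. *Sst* had 175, 139.7 and 73.6 FPKM in PEL_10d, and *Trh* had 63.0, 73.1 and 92.6 FPKM, and both overlapped with Sham. Their log2 fold changes were -0.57 (SE 0.28, edgeR adjusted p = 0.25) and -0.38 (SE 0.18, adjusted p = 0.24), with ranges of -0.84 to -0.29 and -0.63 to -0.08 as each library was left out.

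*Ghrh* at day 10 fell into separate values rather than a common level. PEL_10d replicates 1 and 2 had 127 and 121 counts, near the 125 of the higher Sham library, and replicate 3 had 17 counts, the lowest of the 17 libraries. The log2 fold change against Sham was -0.33 (SE 0.57, edgeR adjusted p = 0.78) and turned to 0.15 without PEL_10d replicate 3. That library also had the lowest levels of *Sst* and *Th* of the 17, and of other genes of the arcuate nucleus. Its *Agrp* level was 0.177 FPKM (1.25 to 14.0 FPKM in the other 16), its *Npy* level 13.4 FPKM (36.7 to 81.8 FPKM) and its *Pomc* level 10.4 FPKM (24.2 to 5479 FPKM). Their part in the *Ghrh* value was not tested.

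Day 10 was then compared with day 3 among lesioned mice without growth hormone. By edgeR 0 of 7 passed, against 18.5% of all genes tested. At an unadjusted p under 0.05 there was 1 (*Ghrh*), against 33.9% of all genes tested. DESeq2 gave 1 (*Ghrh*), against 19% of all genes tested, and limma on log2(FPKM + 0.1) gave 0, against 12.2%. The log2 fold change of *Ghrh* was 1.42 (SE 0.57, edgeR adjusted p = 0.11), and that of *Ddc* was 0.23 (SE 0.12, adjusted p = 0.21). Without PEL_10d replicate 3 the value of *Ghrh* was 1.89 (adjusted p = 0.00149), and *Sst* (0.35, adjusted p = 0.0393) and *Ddc* (0.36, adjusted p = 0.0183) passed too, in a fit where 2247 of all 14967 genes tested passed. These are the genes that fell at day 3, and both comparisons use the same PEL_3d libraries, so they are not independent of each other.

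Growth hormone was compared within each surgery next. In Sham mice *Ghrh* had 55, 78 and 65 counts with growth hormone, against 84 and 125 without, and the groups did not overlap. Its log2 fold change was -0.74 (SE 0.21, unadjusted p = 0.00367 and adjusted p = 0.12 by edgeR's test across all genes). *Sst* had 122, 166 and 148 FPKM in Sham_GH, also below both Sham libraries (log2 fold change -0.36, SE 0.11, edgeR adjusted p = 0.15). As each library was left out, *Ghrh* ranged from -0.97 to -0.46 and *Sst* from -0.51 to -0.18. *Trh* had 43.3, 64.7 and 85.6 FPKM in Sham_GH (-0.58, SE 0.21, adjusted p = 0.21), and *Gnrh1* had 4, 13 and 15 counts (-1.43, SE 0.56, adjusted p = 0.25), both overlapping with Sham. Without Sham replicate 3 the value of *Gnrh1* was -0.28 and that of *Trh* -0.28, and without any 1 library in turn they ranged from -2.05 to -0.28 and from -0.84 to -0.28. *Th* was the only member with a positive value and an unadjusted p under 0.1, at 23.0, 16.6 and 17.5 FPKM (0.28, SE 0.13, adjusted p = 0.34). Without Sham_GH replicate 1, which had the highest *Slc6a3* level of the 17 libraries (13.4 FPKM), it was 0.12 (adjusted p = 0.763), and the part of that marker was not tested. By edgeR 0 of 7 passed, against 1.09% of all genes tested, with 4 at an unadjusted p under 0.05 (2187 of all 14539 genes tested, or 15%) and 0 by DESeq2 or limma. With Sham replicate 1 in the fit 0 of 7 passed too, and the values were -0.18 for *Ghrh*, -0.08 for *Sst*, -0.01 for *Trh*, -0.86 for *Gnrh1* and 0.82 for *Th* (adjusted p = 0.756 to 0.999).

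In lesioned mice growth hormone moved no member past the threshold. At day 3, edgeR gave 0 of 7, against 0.0270% of all genes tested, with 0 of the 7 at an unadjusted p under 0.05 and 0 by DESeq2 or limma. *Ghrh* had 48, 37 and 60 counts in PEL_3d_GH, against 41, 32 and 26 in PEL_3d (log2 fold change 0.52, SE 0.26, adjusted p = 0.77), and *Gnrh1* had 26, 20 and 29 counts, against 18, 12 and 18 (0.61, SE 0.30, adjusted p = 0.77). At day 10, edgeR gave 0 of 7, against 0% of all genes tested. There were 906 genes at an unadjusted p under 0.05, 1 of them a member, and DESeq2 called 36 genes but no member. That member was *Crh*, with 91, 72 and 69 counts in PEL_10d_GH, above the 33, 43 and 44 counts of every PEL_10d library (log2 fold change 0.89, SE 0.22, edgeR adjusted p = 0.62). *Th* had 15.7, 20.3 and 12.8 FPKM in PEL_10d_GH and 13.7, 13.8 and 10.2 FPKM in PEL_10d, which overlapped (0.39, SE 0.17, edgeR adjusted p = 0.81).

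Whether the growth hormone difference depended on the lesion was tested as an interaction. At day 3 edgeR gave 0 of 7, against 0.0462% of all genes tested, with 3 at an unadjusted p under 0.05 (10.5% of all genes tested). For *Ghrh* the term was 1.24 on the log2 scale (SE 0.34, unadjusted p = 0.0027 and adjusted p = 0.21 by edgeR's test across all genes), for *Gnrh1* 2.03 (SE 0.69, adjusted p = 0.31) and for *Sst* 0.59 (SE 0.27, adjusted p = 0.46). With each library left out these ranged from 0.97 to 1.47, 0.88 to 2.65 and 0.33 to 0.80, with the 0.88 of *Gnrh1* without Sham replicate 3. With Sham replicate 1 in the fit they were 0.68, 1.46 and 0.30. At day 10 edgeR gave 0 of 7, against 0% of all genes tested. There were 1366 genes at an unadjusted p under 0.05, 2 of them members, and DESeq2 called 97 genes but no member. The 2 were *Trh* (0.74, SE 0.32, edgeR adjusted p = 0.53) and *Crh* (1.17, SE 0.52, adjusted p = 0.53), with values of 0.44 and 0.33 without Sham replicate 3, 0.98 and 1.69 without Sham replicate 2, and 0.16 and 0.93 with Sham replicate 1 in the fit. No member was thus shown to differ in its response to growth hormone between lesioned and Sham mice.

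Under growth hormone the lesion was compared with Sham_GH, which holds 3 libraries. At day 3 *Ddc* and *Th* fell and *Gnrh1* rose. By edgeR 3 of 7 passed, against 52.1% of all 14743 genes tested, again near the background. *Ddc* had 33.6, 29.8 and 31.9 FPKM in Sham_GH and 19.4, 18.8 and 24.8 FPKM in PEL_3d_GH, with no overlap. Its log2 fold change was -0.62 (SE 0.11, edgeR adjusted p = 0.00092), and it passed whichever library was left out. Of the hypothalamic markers 5 of 11 tested were lower and 1 higher (median -0.36), and of the striatal ones 4 of 8 were lower (median -0.40). Their part in the members' values was not tested.

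*Th* had 23.0, 16.6 and 17.5 FPKM in Sham_GH and 12.3, 11.2 and 18.1 FPKM in PEL_3d_GH, where replicate 3 overlapped with Sham_GH (log2 fold change -0.48, SE 0.18, edgeR adjusted p = 0.047). The highest *Th* library, Sham_GH replicate 1, also had the highest level of *Slc6a3*, the dopamine transporter that midbrain dopamine neurons express strongly, at 13.4 FPKM against 0.736 to 7.99 FPKM in the other 16. The 8 midbrain dopamine markers, all 8 measured, summed to 71.1 to 119 FPKM in Sham_GH and 76.8 to 96.9 FPKM in PEL_3d_GH, sums carried by *Aldh1a1* (43.3 to 69.3 and 57.0 to 78.9 FPKM). Of the 4 tested, 2 were lower in PEL_3d_GH (*Slc6a3* and *Slc18a2*), with a median of -0.71. *Pitx3* had 0.045 to 0.509 FPKM in Sham_GH and 0 to 0.045 FPKM in PEL_3d_GH, and *En1* had 0.022 to 0.317 and 0.024 to 0.071 FPKM. Their part in the *Th* values was not tested. Without Sham_GH replicate 1 the log2 fold change of *Th* was -0.32 (adjusted p = 0.197), and *Th* also missed the threshold without Sham_GH replicate 3 or PEL_3d_GH replicate 1 or 2, and by limma.

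*Gnrh1* had 4, 13 and 15 counts in Sham_GH and 26, 20 and 29 counts in PEL_3d_GH, with no overlap. Its log2 fold change was 1.18 (SE 0.41, edgeR adjusted p = 0.034). DESeq2 gave an adjusted p of 0.062, and the call was lost without Sham_GH replicate 1 or 2 or PEL_3d_GH replicate 1 or 3, with values over all left-out libraries from 0.81 to 1.54 (edgeR adjusted p = 0.0301 to 0.106). *Ghrh* had 55, 78 and 65 counts in Sham_GH and 48, 37 and 60 counts in PEL_3d_GH (-0.49, SE 0.22, adjusted p = 0.082). It passed without PEL_3d_GH replicate 3 (-0.61, adjusted p = 0.0441) and by limma at both pseudocounts (adjusted p = 0.0296 and 0.0321). *Trh*, at 43.3 to 85.6 FPKM in Sham_GH and 73.3 to 108 FPKM in PEL_3d_GH, did not pass (0.44, SE 0.21, adjusted p = 0.10). Its value was 0.72 without Sham_GH replicate 3 (adjusted p = 0.0183) and 0.22 without Sham_GH replicate 1 (adjusted p = 0.32).

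At day 10 under growth hormone *Crh*, which drives the pituitary to adrenal axis, rose. Its counts were 12, 32 and 24 in Sham_GH and 91, 72 and 69 in PEL_10d_GH, so each lesioned library had more than every Sham_GH library. The level was 3.51 ± 0.523 FPKM against 1.03 ± 0.412 FPKM (SD, n = 3 each), and the log2 fold change was 1.73 (SE 0.29, edgeR adjusted p = 0.0017), or 3.31-fold. It passed whichever library was left out, with values from 1.45 to 2 and adjusted p of 0.00282 to 0.00932. One of these libraries, PEL_10d_GH replicate 3, had 5479 FPKM of *Pomc* and 32.4 FPKM of *Prl*. Its 9 anterior pituitary markers summed to 5555 FPKM, nearly all of it *Pomc*, against 15.2 to 115 FPKM in the other 16 libraries. *Cga*, *Lhb* and *Fshb* were also highest there, but *Gh* (4.97 FPKM) and *Tshb* (0.425 FPKM) were not. *Ghrhr* was at 0 in every library and *Pou1f1* in nearly every one. Without PEL_10d_GH replicate 3 the log2 fold change of *Crh* was 1.83 (edgeR adjusted p = 0.00282), and the part of these markers in its value was not tested.

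*Crh* was the only member past the threshold in that comparison, 1 of 7 against 30.9% of all 14686 genes tested. *Ddc* had 29.5, 27.2 and 27.9 FPKM in PEL_10d_GH, all below Sham_GH, and missed narrowly (log2 fold change -0.19, SE 0.07, edgeR adjusted p = 0.051), though it passed without Sham_GH replicate 2 or PEL_10d_GH replicate 1. *Trh* had 93.7, 71.8 and 87.4 FPKM (0.36, SE 0.20, adjusted p = 0.19), a value that was 0.62 without Sham_GH replicate 3 (adjusted p = 0.0297) and 0.14 without Sham_GH replicate 1 (adjusted p = 0.51). The ratio of *Trh* to *Crh* in FPKM was 20.8 to 28.9 in PEL_10d_GH, below every library of the other 5 groups (31.5 to 128).

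Between day 10 and day 3 under growth hormone *Ddc* rose. It had 18.8 to 24.8 FPKM in PEL_3d_GH and 27.2 to 29.5 FPKM in PEL_10d_GH, without overlap (log2 fold change 0.41, SE 0.12, edgeR adjusted p = 0.043). The call was kept without PEL_3d_GH replicate 3 and lost when any of the other 5 libraries was left out (values from 0.35 to 0.56, adjusted p = 0.00202 to 0.146). By edgeR 1 of 7 passed, against 15.6% of all genes tested, near the background. *Gnrh1* had 14, 11 and 14 counts in PEL_10d_GH, below every PEL_3d_GH library (-0.95, SE 0.30, adjusted p = 0.063). *Crh* had 25, 12 and 67 counts in PEL_3d_GH, below every PEL_10d_GH library (1.16, SE 0.45, adjusted p = 0.11), and passed without PEL_3d_GH replicate 3 (1.99, adjusted p = 0.0042).

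**Figure D3:**
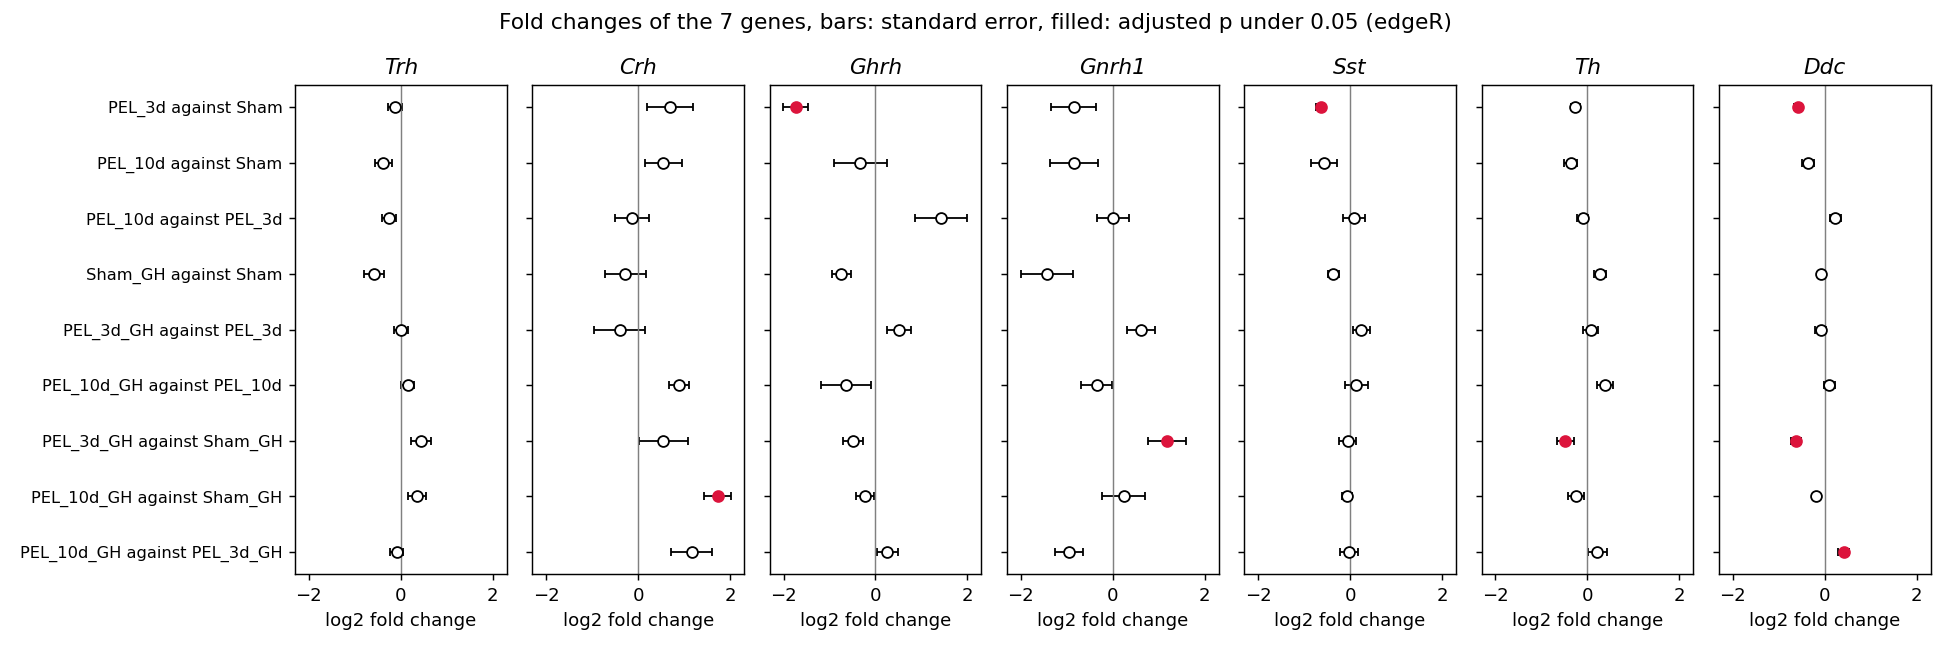
Log2 fold changes of the 7 genes in the 9 direct comparisons, with bars for the standard error and filled points for an edgeR adjusted p under 0.05. *Ddc* is filled below 0 in both day 3 comparisons, *Ghrh* (-1.74) and *Sst* below 0 in PEL_3d against Sham, and *Crh* (1.73) above 0 at day 10 under growth hormone.

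The members varied together in part. Across the 17 libraries, in log2(FPKM + 0.1), *Ghrh* and *Sst* had a Pearson r of 0.82, *Ghrh* and *Ddc* of 0.73, *Th* and *Ddc* of 0.69 and *Trh* and *Gnrh1* of 0.67. After subtraction of group means these were 0.87, 0.75, 0.71 and 0.57, and *Trh* and *Crh* reached 0.78, against 0.56 before. *Ghrh* and *Crh* had -0.06. These are descriptions over 17 libraries in which genes share whatever differs between libraries, and PEL_10d replicate 3 was the lowest in both *Ghrh* and *Sst*. By the same measure, among 13395 genes with a mean of at least 1 FPKM, the genes most like *Ddc* were *Susd4* (0.95), *Cpne7* (0.95) and *Tmem8b* (0.95), and those most like *Ghrh* were *Tmem35a* (0.90), *Ccdc157* (0.90) and *Sytl4* (0.89). *Crh* was most like *Chn2* (0.85), *Rxrb* (0.84) and *Bin1* (0.81). For *Sst* they were *Tmem9* (0.88), *Aldh3b2* (0.87) and *Tppp3* (0.87), for *Th* *Ache* (0.82), *Lpcat4* (0.82) and *Tubb2a* (0.80), and for *Gnrh1* *Cetn4* (0.74), *Snurf* (0.73) and *Pin4* (0.72).

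**Figure D4:**
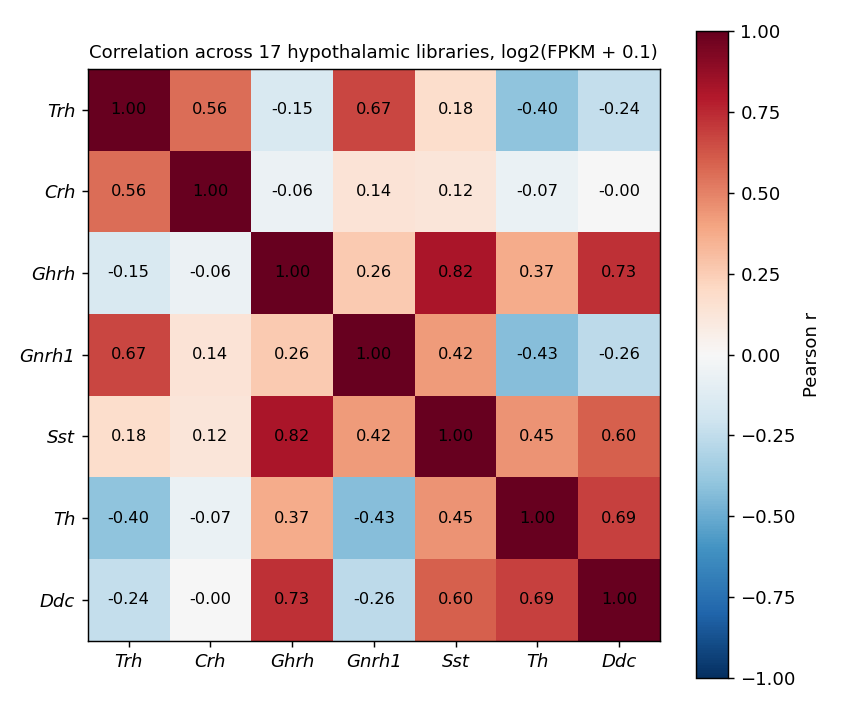
Pearson r between the 7 genes across 17 hypothalamic libraries in log2(FPKM + 0.1), from -1 to 1 by colour. *Ghrh*, *Sst* and *Ddc* have values of 0.60 to 0.82 with each other, *Th* and *Ddc* have 0.69, and *Trh* and *Gnrh1* have 0.67.

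The receptors and binding proteins of these hormones were read from a list of 16 genes, of which 11 were tested. In PEL_3d against Sham 5 fell and 1 rose, while of all 14905 genes tested 2719 fell and 3316 rose. *Sstr5* (log2 fold change -1.0, SE 0.28, edgeR adjusted p = 0.015) and *Sstr2* (-0.58, SE 0.18, adjusted p = 0.026), both somatostatin receptors, fell, and *Crhbp*, which binds CRH, rose (0.49, SE 0.17, adjusted p = 0.045). Under growth hormone at day 3, 8 of the 11 fell, against 3708 of all 14743 genes tested, and the somatostatin receptors *Sstr4* (-0.94) and *Sstr3* (-0.83) fell farthest. At day 10, 0 passed against Sham (smallest p for *Sstr5*, -1.09, edgeR adjusted p = 0.055), and under growth hormone *Sstr5* (-0.76) and *Sstr3* (-0.42) fell. The list's median was -0.35, -0.61, -0.26 and -0.13 in these 4 comparisons, against -0.01 over all genes tested in the first, the third and the fourth.

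Around *Th* and *Ddc*, 13 of 16 genes that handle or receive dopamine were tested at day 3. In PEL_3d 2 fell and 2 rose, where 40.5% of all genes tested passed. *Slc18a2*, the vesicular monoamine transporter, fell (-0.48, SE 0.16, edgeR adjusted p = 0.034), as did *Maob*, which degrades dopamine (-0.42, SE 0.11, adjusted p = 0.013). *Slc7a5*, an amino acid transporter, was 1 of the 2 that rose (0.35, SE 0.09, edgeR adjusted p = 0.013). Under growth hormone 4 fell and 2 rose at day 3, where 52.1% of all genes tested passed, with *Slc6a3* (-2.85, SE 0.64) and *Slc18a2* (-0.91) lowest and *Pts*, an enzyme of the cofactor of *Th*, among those that rose (0.30). *Slc6a3* had 1.69 to 13.4 FPKM in Sham_GH and 0.736 to 1.12 FPKM in PEL_3d_GH. At day 10 against Sham 0 of 14 passed (smallest p for *Drd1*, -0.60, edgeR adjusted p = 0.12), and against Sham_GH only *Qdpr*, which recycles that cofactor, rose (0.22, adjusted p = 0.037). From day 3 to day 10 without growth hormone *Maob* (0.52), *Slc18a2* (0.50) and *Qdpr* (0.38) rose.

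Enzymes and granins that make and store peptide hormones were lower at day 3 where they passed. Of 10, 8 fell in PEL_3d (2719 of 14905 genes tested fell), with *Pcsk1*, the prohormone convertase, at -0.81 (SE 0.09, edgeR adjusted p = 4.9e-05) and *Chgb* at -0.52 (SE 0.07, adjusted p = 0.00022), and 9 fell in PEL_3d_GH (3708 of 14743 genes tested), with *Pcsk1* at -0.72 and *Pcsk2* at -0.56. At day 10 *Cpe* rose (0.40) and *Chgb* fell (-0.27). Under growth hormone *Cpe* rose (0.38) and *Pcsk1* (-0.32), *Pam* (-0.31) and *Chgb* fell. From day 3 to day 10, 4 of 10 rose (938 of 14807 genes tested rose), *Cpe* (0.56), *Pcsk1* (0.47), *Pam* (0.28) and *Chgb* (0.26).

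Transcription factors of a neuroendocrine list were lower in each lesioned group where they passed against Sham or Sham_GH. The cells that made them were not identified. Of 19, 11 fell and 0 rose in PEL_3d, where 40.5% of all genes tested passed and 2719 of 14905 fell, with *Isl1* at -0.84 (SE 0.11, edgeR adjusted p = 0.00024) and *Nr5a1* at -0.81 (SE 0.18, adjusted p = 0.0053) lowest and a list median of -0.56. In PEL_3d_GH 8 fell (3708 of 14743 genes tested fell), led by *Nr4a2* (-1.40) and *Sim1* (-0.95), with a median of -0.40. At day 10 only *Otp* fell (-0.59, edgeR adjusted p = 0.021), where 9.40% of all genes tested passed. Under growth hormone *Rax* (-1.73), *Nkx2-1* (-0.87), *Sim1* (-0.49) and *Isl1* (-0.39) fell, where 30.9% of all genes tested passed and 1947 of 14686 fell.

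Among 14 other arcuate and tuberal peptides, of which 10 were tested, directions differed. In PEL_3d, *Agrp* (-1.35, SE 0.35, edgeR adjusted p = 0.012) and *Pomc* (-0.76, SE 0.15, adjusted p = 0.0026) were lowest of 4 that fell (40.5% of all genes tested passed), while *Gal* (2.04, SE 0.17, adjusted p = 6.4e-06) and *Npvf* (0.99, SE 0.21, adjusted p = 0.0037) rose. *Gal*, the gene of galanin, had 39.1 and 42.6 FPKM in Sham and 142 to 215 FPKM in PEL_3d. In PEL_3d_GH *Gal* rose (1.55), and *Agrp* (-1.13), *Pdyn* (-0.59) and *Cartpt* (-0.36) fell. At day 10, 0 passed against Sham (smallest p for *Gal*, -0.25, edgeR adjusted p = 0.22), and under growth hormone *Agrp* fell (-1.04) and *Gal* rose (0.24). *Pomc* passed with a value of 5.20, which rests on 1 library: it had 51.9, 58.2 and 36.2 FPKM in Sham_GH and 24.2, 30.2 and 5479 FPKM in PEL_10d_GH. Without PEL_10d_GH replicate 3, a fit added after the values were seen, *Pomc* was lower (-0.88, edgeR adjusted p = 0.0068), *Agrp* still passed (-1.01) and *Gal* did not (0.20, adjusted p = 0.11).

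Genes that read the hormones of the target glands were read as 19 genes. In PEL_3d 11 fell and 1 rose, where 40.5% of all genes tested passed, with *Dio3* (-2.32, SE 0.74, edgeR adjusted p = 0.029) and the thyroid hormone receptor *Thrb* (-0.95, SE 0.09, adjusted p = 2.1e-05) lowest and *Sgk1*, a glucocorticoid-induced kinase, higher (0.99, SE 0.19, adjusted p = 0.0024). In PEL_3d_GH 11 of 18 fell and 2 rose, where 52.1% of all genes tested passed, with *Thrb* (-0.91) and *Pgr* (-0.79) lowest and *Dio2* (0.57) and *Fkbp5* (0.45) higher. At day 10, 0 passed against Sham (smallest p for *Thrb*, -0.57, edgeR adjusted p = 0.10), and 7 of 18 fell under growth hormone (30.9% of all genes tested passed), led by *Pgr* (-0.58) and *Thrb* (-0.48). With growth hormone Sham mice had higher *Sgk1* (1.496, SE 0.17, edgeR adjusted p = 0.0019), *Tsc22d3* (0.65) and *Klf9* (0.44), the last 2 also glucocorticoid-induced. There 159 of all 14539 genes tested passed. That number was 13 in 1 fit over all 6 groups, 5 and 0 by limma at the lower and higher pseudocount, and 0 with all 3 Sham libraries. At day 3 the lesioned mice with growth hormone had higher *Socs2*, an inhibitor of growth hormone signalling (1.15, SE 0.14, edgeR adjusted p = 0.047), where 0.0270% of all genes tested passed. In these 2 comparisons no gene of the 5 other lists passed except *Slc7a5* in Sham_GH (0.35, adjusted p = 0.040), and in PEL_10d_GH against PEL_10d no gene of any of the 6 lists passed by edgeR.

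Between the days the lists moved the other way for some genes. Without growth hormone *Gal* (-2.28) and *Npvf* (-1.05) fell from day 3 to day 10 and *Nkx2-1* (0.60) rose. Of the feedback genes 8 of 18 rose, against 938 of all 14807 genes tested, led by *Klf9* (0.55) and *Pgr* (0.48), and *Sgk1* (-0.83) and *Fkbp5* (-0.33) fell. Under growth hormone *Gal* (-1.32) and *Dio2* (-0.72) fell, and *Nr4a2* (0.80), *Isl1* (0.42), *Thrb* (0.41), *Cpe* (0.64) and *Pcsk1* (0.38) rose. Of the dopamine genes 2 rose, *Slc6a3* (2.22) and *Qdpr* (0.43), and 2 fell, among them *Pts* (-0.43). No receptor gene passed in either. These comparisons share the day 3 libraries with those against Sham or Sham_GH. In the 2 interactions no gene of the 6 lists passed by edgeR.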

How the data were processed

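RNA of 24 mouse brain libraries was sequenced, 18 hypothalamic and 6 hippocampal by their titles. The authors aligned reads with Hisat2 2.0.5 and counted them per gene with featureCounts 1.5.0-p3, on GRCm38 (mm10) per the labels. Each gene and library has an estimated count and an FPKM in the deposited table. Of the counts 8.22% are not whole and were rounded. FPKM was used as the authors deposited it, already scaled for gene length and depth. Symbols were matched for 22219 of 22274 genes.

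Tests ran in R 4.3.3 with edgeR 4.0.16 (TMM, filterByExpr with a minimum count of 10, quasi-likelihood test, Benjamini-Hochberg adjustment over all genes tested, threshold 0.05), 9 direct comparisons and 2 interactions, each fit holding only its own groups. SE is the standard error of the log2 fold change. The fit was tested on simulated data. Alternatives were DESeq2 1.42.0, its size factors, other filters, a replicate block, 1 fit over 6 groups, limma 3.58.1 on log2(FPKM + 0.1) or log2(FPKM + 1), all 3 Sham libraries, and each library left out.

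Replicate pairs differed by a chi-square per degree of freedom of 3.25 to 20.5, except 4 pairs with Sham replicate 1 or HIP_Sham replicate 1 (163 to 167). Fold changes are printed for members with an unadjusted p under 0.1 and for a few others. Of each list, every gene that passed is named where 4 or fewer did (save a few results not reported here), otherwise the 2 largest rises and the 2 largest falls (against Sham, the gene of smallest p where none passed), and for each member but *Trh* the 3 genes of highest r. The members and lists were chosen with earlier results of these data known. Marker lists were for hypothalamus, hippocampus, choroid plexus, anterior pituitary, midbrain dopamine neurons, thalamus and striatum. Thalamic markers summed to 79.0 to 122 FPKM and striatal markers to 134 to 190.1 FPKM in the 17 hypothalamic libraries. A promoter window of *Crh* or *Gnrh1* and protein sequences were not used here.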

Additional observations from a re-analysis of the deposited data

Results flagged for a closer look

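HIP_Sham replicate 1 is labelled hippocampus and enters no comparison above. It held 5 of the 7 genes above the highest of the 5 other hippocampal libraries, at 90.2 FPKM of *Trh*, 13.5 FPKM of *Ghrh*, 3.93 FPKM of *Gnrh1*, 17.2 FPKM of *Th* and 29.8 FPKM of *Ddc*. The highest values of the other 5 were 0.544 FPKM of *Trh*, 0.252 FPKM of *Ghrh*, 0.153 FPKM of *Gnrh1*, 0.285 FPKM of *Th* and 4.40 FPKM of *Ddc*. All 5 values lay within the range of the 17 hypothalamic libraries.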

How the results depend on the processing

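Of 93 counts of members past the threshold under other settings, 81 stayed within 1.5 times the count reported. A count of 0 that stayed at 0 is included, as in most settings of the comparisons without a call. This share therefore says little about the calls themselves. With all 3 Sham libraries, 0 of 7 passed in PEL_3d against Sham, and in that fit *Th* turned to 0.30. In PEL_10d against Sham *Trh* then turned to 0.20, *Ghrh* to 0.24, *Th* to 0.18 and *Ddc* to 0.12 (log2 fold changes), and *Ghrh* ranged from -0.70 to 0.15 as each library was left out. So did *Gnrh1* in PEL_3d against Sham, from -1.47 to 0.29, and *Sst* in PEL_10d against PEL_3d, from -0.19 to 0.35 (limma at both pseudocounts gave -0.01). A mean count of at least 50 left 1 in PEL_3d_GH against Sham_GH, a filter that *Gnrh1* could not pass and under which *Th* had -0.44 (adjusted p = 0.0666). By limma *Th* had an adjusted p of 0.0602 or 0.0643. DESeq2's size factors gave 2 in PEL_10d_GH against Sham_GH, limma at both pseudocounts gave 2 in PEL_10d_GH against PEL_3d_GH, and DESeq2 and the fit over all 6 groups gave 1 each in PEL_10d against PEL_3d. The cause was not tested.

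With each library left out, counts ranged from 3 to 4 (PEL_3d against Sham), 0 to 3 (PEL_10d against PEL_3d), 1 to 3 (PEL_3d_GH against Sham_GH), 1 to 2 (PEL_10d_GH against Sham_GH) and 0 to 2 (PEL_10d_GH against PEL_3d_GH). The other 6 stayed at 0. In the same fits 22.4 to 44.8%, 8.91 to 18.7%, 41.9 to 59.1%, 21.0 to 36.3% and 4.70 to 29.6% of all genes tested passed.

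Same-numbered libraries of compared groups correlated from -0.479 to 0.403 in their deviations from group means. Different-numbered libraries were not correlated, so these values cannot decide whether replicate numbers pair the libraries. With the number as a replicate block, counts were 3 in PEL_10d against Sham (*Sst*, *Ddc* and *Th*), 1 in Sham_GH against Sham (*Trh*), 4 in PEL_3d_GH against Sham_GH (*Trh* besides the 3 reported), 2 in PEL_10d_GH against Sham_GH (*Ddc* besides *Crh*), 1 in PEL_10d against PEL_3d (*Ghrh*) and 0 in PEL_10d_GH against PEL_3d_GH, where 11.0, 2.18, 52.5, 31.1, 22.7 and 7.47% of all genes tested passed.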
